A study of Mus musculus with 6 samples.

Results

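The genes described here are 10 regulators of the G1 phase of the cell cycle and of entry into S phase, chosen by name: CDK6, CDK4, CDK2, CCND2, CCND3, CCNE1, CCNE2, CDKN1B, CDKN2C and RB1. All 10 had a row among the 13892 human gene rows of the deposited expression table. All 10 also passed a filter of at least 1 CPM (reads scaled to the normalized library size) in at least 3 libraries, which left 13755 genes for testing. The libraries came from human acute myeloid leukemia (AML) grown in NSG mice, an immunodeficient strain, after human hematopoietic stem cells had been transduced with NPM1c, a mutant nucleophosmin. The transductions were independent, 1 for each of 3 mice, and marrow was taken when the mice were moribund. Cell sorting gave a pair of populations per mouse. The bulk leukemic gate was GFP+ and CD33+. The gate for leukemic stem cells, abbreviated LSC, required CD123 in addition, and each population has 3 libraries. GFP is a surrogate of NPM1c expression, all libraries carry NPM1c, and there is no population without it. The bulk gate does not mention CD123, so bulk may include CD123+ cells. The sources used here state neither the ages of the mice nor the promoter driving NPM1c.

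In G1, D-type cyclins (CCND2 and CCND3 encode cyclins D2 and D3) bind the kinases CDK4 and CDK6, and the active kinases phosphorylate the retinoblastoma protein, the product of RB1. Phosphorylated RB releases E2F factors, which drive genes of S phase, among them the E-type cyclins (CCNE1 and CCNE2) that activate CDK2. INK4 inhibitors, such as p18 encoded by CDKN2C, bind CDK4 and CDK6, and CIP/KIP inhibitors, such as p27 encoded by CDKN1B, act mainly on CDK2 complexes. CDK6 and cyclins D2 and D3 are known as the forms that blood progenitors use most, and CDK6 is known for a part in the exit of hematopoietic stem cells from quiescence. Messenger RNA levels do not show the activity of these kinases, which depends on protein and phosphorylation.

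Depth and cell makeup differed between the libraries. They held 10669560 to 14933494 recovered reads, of which 27.2% to 70.0% lay on 10 MTRNR2L rows. The share was highest in the bulk library of mouse 1. IL3RA, which encodes CD123, stood at 1.54 to 2.37 CPM in bulk and 48.0 to 140 CPM in LSC. CD33 stood at 4.45 to 13.1 CPM in bulk and at 6.80, 8.05 and 1.17 CPM in the LSC libraries of mice 1, 2 and 3. The stem and progenitor markers CD34 (7.20 to 26.8 CPM in bulk, 0.729 to 5.39 CPM in LSC) and KIT (24.2 to 43.0 against 1.97 to 11.7 CPM) were lower in the library labelled LSC in each mouse. Their limma adjusted p was 0.0960 and 0.0691 without the mouse as a block, and 0.0361 and 0.00806 with it. HOXA9, a homeobox gene typical of NPM1c leukemia, was at 1.78 to 2.05 CPM in bulk and at 0.729 CPM or less in LSC, without a read in the LSC library of mouse 2. None of 9 myeloid and progenitor markers passed (5 lower with the block), and they summed to 229 to 2579 CPM in bulk and 117 to 971 CPM in LSC. All 10 plasmacytoid dendritic cell markers listed for the purpose rose in LSC, with a summed level of 128 to 328 CPM in bulk and 1866 to 3528 CPM in LSC. LILRA4 and PTCRA had no read in the bulk libraries of mice 1 and 2, and GZMB none in that of mouse 3. The 10 B lineage markers summed to 1127 CPM in the bulk library of mouse 3, against 130 to 246 CPM in the other 5 libraries. Most of each LSC sum was BLNK, at 103, 103 and 161 CPM in mice 1, 2 and 3, against 18.5, 12.8 and 89.6 CPM in bulk. BLNK was the 1 tested marker of this list with a positive change, and 8 had negative changes. Of the 10 B lineage markers, 9 could be tested and 2 fell, with 1 higher (BLNK) and 5 lower when the mouse was a block. The shares over all genes tested were 1.33% lower and 2.71% higher, or 7.71% and 8.25% with the block.

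CDK6, the catalytic partner of D cyclins in blood progenitors, was far lower in LSC than in bulk in each mouse. Its bulk level was 492, 444 and 658 CPM in mice 1, 2 and 3, and its LSC level was 133, 123 and 186 CPM. The populations did not overlap, and the highest LSC library had less than the lowest bulk library. The means were 532 ± 113 CPM in bulk and 147 ± 33.7 CPM in LSC (SD, n = 3). The log2 change, LSC minus bulk, was -1.86 (SE 0.29, 95% interval -2.50 to -1.21), which is 3.62-fold, with a limma adjusted p of 0.00944. CDK6 was the only 1 of the 10 genes to fall at an adjusted p of 0.05 in the fit without the mouse, and none rose. Over all genes tested, 1.33% fell and 2.71% rose by the same rule. The drop was nearly the same size in every mouse, at -1.89, -1.85 and -1.83 on the log2 scale. With the mouse as a block the SE was 0.18 (95% interval -2.25 to -1.46) and the limma adjusted p was 0.000472. Without both libraries of mouse 1 or of mouse 2 the change was -1.84 and -1.86, with a limma adjusted p of 0.164 and 0.0695. In the authors' deposited table CDK6 had a p-value of 0.00696 and a false discovery rate of 0.207. The lowest false discovery rate of any gene there was 0.0813, so none passed 0.05. Reads behind these values ran from 1799 to 10292 per library.

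In sorted populations, fewer cells of a type and less RNA per cell cannot be told apart, which holds for every gene here. The bulk library of mouse 3, which had the highest CDK6 level, also had the highest sum of B lineage markers. The granulocyte precursor markers (all 10 with negative changes, 0 of 10 past the threshold without the block and 8 lower with it) summed to 4082 to 8101 CPM in bulk and 928 to 3356 CPM in LSC. LYZ made up most of the sum in every library, with 3976 CPM in the bulk library of mouse 3. In that library ELANE, PRTN3 and AZU1 stood at 1.54, 1.15 and 0.384 CPM, against 161, 97.5 and 35.2 CPM in the bulk library of mouse 2. The 9 erythroid markers measured (3 fell, 7 lower with the block) summed to 156 to 735 CPM in bulk and 25.2 to 189 CPM in LSC. PRTN3, AZU1, CEBPE, ALAS2, AHSP and EPOR had no read in the LSC library of mouse 3. Of 6 T and NK cell markers none passed in either fit, and their sum was 21.1 to 38.4 CPM in bulk and 23.4 to 42.6 CPM in LSC, with CD3E at 0 in the LSC library of mouse 2 and CD8A at 0 in the bulk library of mouse 1. All 10 plasmacytoid dendritic cell markers rose in LSC, with sums of 128 to 328 CPM in bulk and 1866 to 3528 CPM in LSC. The part of any of these cell types in the CDK6 difference was not tested.

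**Figure D1:**
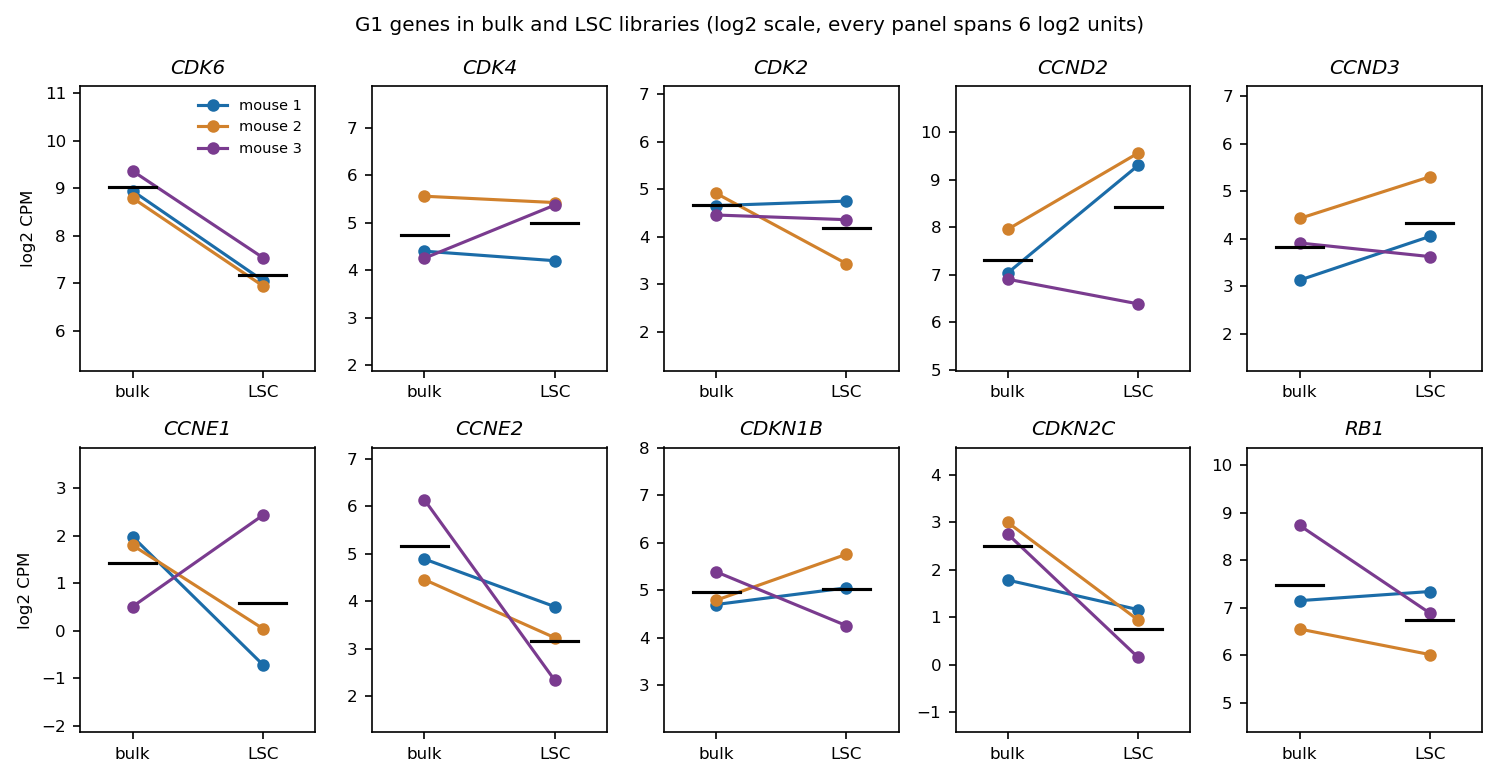
Log2 CPM (y axis) of each of the 10 genes in the bulk and LSC libraries (x axis). Coloured points joined by a line are the libraries of 1 mouse, the black bar is the mean of 3 libraries, and every panel has the same span. CDK6 falls along parallel lines, CCNE2 and CDKN2C slope downward in every mouse, and mouse 3 runs against the other mice for CCND2, CCND3, CCNE1, CDK4 and CDKN1B.

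CDK4, the other partner of D cyclins, did not share the pattern of CDK6. It stood at 21.1, 47.0 and 19.0 CPM in the bulk libraries of mice 1, 2 and 3 and at 18.3, 42.9 and 41.3 CPM in the LSC libraries. The populations overlapped, mice 1 and 2 had nearly equal levels in both, and mouse 3 had the higher level in LSC. The log2 change was 0.26 (SE 0.47, 95% interval -0.79 to 1.32, limma adjusted p = 0.791), so changes within that interval in either direction remain possible. It was -0.17 without mouse 3. CDK4 shares its end with TSPAN31, a gene on the opposite strand. The sources used here do not state a strand setting for the counting, so reads in the shared end may come from either gene. The ratio of CDK6 to CDK4 within a library was lower in LSC in every mouse, by -1.69, -1.72 and -2.94 on the log2 scale in mice 1, 2 and 3. Gene length cancels in such a change, and the ratios of the populations did not overlap. The mean difference was -2.12 (pooled SD 0.83), or 4.34-fold, and was not tested. No lengths of human genes were used here, so levels were not compared between genes.

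CDK2, the kinase of E-type cyclins, was measured at 25.2, 30.1 and 21.9 CPM in bulk and 26.9, 10.8 and 20.5 CPM in LSC in mice 1, 2 and 3. The lower mean in LSC (19.4 ± 8.12 against 25.8 ± 4.13 CPM) came from mouse 2, where the log2 change was -1.48, while mice 1 and 3 had 0.10 and -0.10. The limma estimate was -0.50 (95% interval -1.39 to 0.40, adjusted p = 0.517). Without both libraries of mouse 2 it was -0.0014.

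CCND2, which encodes cyclin D2, had higher values in LSC than in bulk in mice 1 and 2 and not in mouse 3. Its bulk level was 131, 248 and 120 CPM, and its LSC level was 630, 755 and 83.5 CPM in mice 1, 2 and 3. The LSC library of mouse 3 was the lowest of all 6, and those of mice 1 and 2 were the highest, so the populations overlapped. The log2 changes by mouse were 2.26, 1.61 and -0.52, and the limma estimate was 1.12 (SE 0.74, 95% interval -0.55 to 2.78, adjusted p = 0.430, and 0.115 with the mouse as a block). Without the LSC library of mouse 3 the estimate was 2.13 (limma adjusted p = 0.0380), and without both libraries of that mouse 1.93 (adjusted p = 0.0494). Leaving out any other library or mouse gave 0.54 to 1.44 (limma adjusted p of 0.401 to 0.855), so CCND2 passed only where the library that went the other way was removed. The difference between mouse 3 and the other mice was not tested, since each mouse gave 1 library a population.

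CCND3, which encodes cyclin D3, followed the same order of mice at a smaller size. It stood at 8.73, 21.5 and 15.0 CPM in bulk and 16.6, 39.6 and 12.3 CPM in LSC. Log2 changes by mouse were 0.92, 0.88 and -0.29, and the limma estimate was 0.50 (95% interval -0.65 to 1.66, adjusted p = 0.619). Most of its spread, 69.2% of the sum of squares of log2 CPM, lay between mice, with mouse 2 highest in both populations. The ratio of CCND2 to CCND3 changed by 1.34, 0.73 and -0.23 on the log2 scale in mice 1, 2 and 3, with overlapping populations. CCND1, which encodes the third D cyclin, had a log2 change of -0.67 (limma adjusted p = 0.550), from 10.3 CPM in bulk to 5.73 CPM in LSC on average.

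The E-type cyclins differed from each other in how they varied. CCNE2, which encodes cyclin E2, stood at 29.6, 21.9 and 70.4 CPM in the bulk libraries of mice 1, 2 and 3 and at 14.8, 9.38 and 5.03 CPM in the LSC libraries. Every LSC library was below every bulk library, and the widest gap was in mouse 3, which had the highest bulk level and the lowest LSC level. The means were 40.7 ± 26.1 and 9.73 ± 4.88 CPM (SD, n = 3), and the log2 change was -2.01 (SE 0.54, 95% interval -3.22 to -0.80). It did not pass without the block (limma adjusted p = 0.0765) and passed with it (0.0302). With the block 2 of the 10 genes, CDK6 and CCNE2, were lower and none was higher, against 7.71% of all genes lower and 8.25% higher. By mouse the changes were -1.0, -1.22 and -3.80, and without mouse 3 the estimate was -1.11 (limma adjusted p = 0.263).

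CCNE1, which encodes cyclin E1, had the widest disagreement between mice. Its level was 3.94, 3.47 and 1.41 CPM in bulk and 0.591, 1.01 and 5.40 CPM in LSC. Mice 1 and 2 had lower values in LSC, by -2.70 and -1.76 on the log2 scale, and mouse 3 had a higher one, by 1.92. These values rest on 8 to 74 reads per library, with 22 bulk reads and 74 LSC reads in mouse 3. The limma estimate was -0.84 (95% interval -2.87 to 1.18, adjusted p = 0.637), and 76.9% of the sum of squares was left after population and mouse. Without mouse 3 it was -2.23 (adjusted p = 0.230) and without mouse 1 it was 0.08. In mouse 3 the ratio of CCNE2 to CCNE1 moved by -5.73 on the log2 scale, against 1.69 and 0.53 in mice 1 and 2, so its mean difference was -1.17 with mouse 3 and 1.11 without it.

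**Figure D2:**
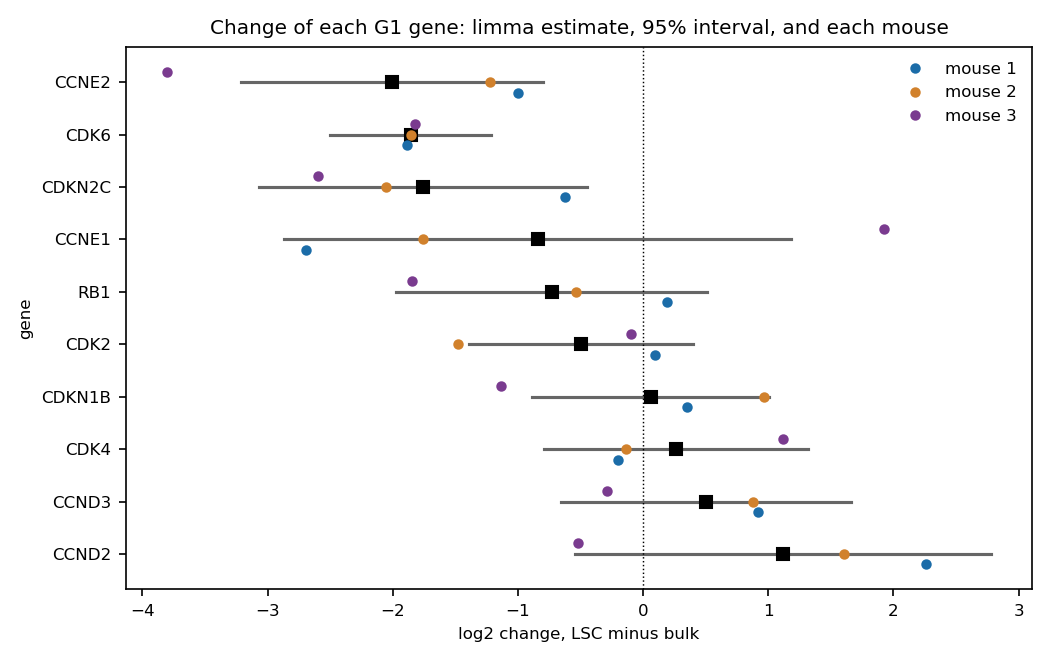
Log2 change, LSC minus bulk (x axis), for each of the 10 genes (y axis). Squares are limma estimates without the mouse, grey lines their 95% intervals, and coloured points the difference within each mouse. The interval lies wholly below 0 for CCNE2, CDK6 and CDKN2C, and the 3 mice nearly coincide for CDK6.

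The inhibitors also behaved unlike each other. CDKN2C, which encodes the INK4 inhibitor p18, was at 3.42, 7.96 and 6.72 CPM in bulk and 2.22, 1.90 and 1.09 CPM in LSC in mice 1, 2 and 3. Each LSC library was below each bulk library, on 20 to 105 bulk reads and 15 to 30 LSC reads. The log2 change was -1.76 (SE 0.58, 95% interval -3.07 to -0.45) and did not pass, with a limma adjusted p of 0.135, or 0.0666 with the mouse as a block. With the mouse as a random effect it passed (adjusted p = 0.0375). On the deposited values CDKN2C and CDK6 had changes of like size. Their ratio differed by 0.10 on the log2 scale on average (pooled SD 0.76), and by 1.27, -0.20 and -0.77 in mice 1, 2 and 3. With 1 and 5 CPM added before the log, the change of CDKN2C was -1.32 and -0.69, and that of CDK6 -1.85 and -1.82. With CDK6 and CCNE2, CDKN2C made 3 of 10 genes with all LSC libraries below all bulk libraries, and no gene had the opposite pattern. Over all genes tested 11.9% had that pattern and 13.2% the opposite one.

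CDKN1B, which encodes p27, had no common direction. Its level was 26.0, 27.7 and 42.0 CPM in bulk and 33.2, 54.2 and 19.1 CPM in LSC. Mice 1 and 2 had log2 changes of 0.35 and 0.97 and mouse 3 of -1.13. The limma estimate was 0.06 (95% interval -0.88 to 1.01, adjusted p = 0.949), and population took 0.399% of its sum of squares. The ratio of CDKN1B to CDK2, the kinase that p27 inhibits, changed by 0.25, 2.45 and -1.04 in mice 1, 2 and 3.

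RB1, the gate that the kinases act on, was at 142, 93.6 and 425 CPM in bulk and 162, 64.5 and 118 CPM in LSC in mice 1, 2 and 3. The bulk library of mouse 3 stood above the other 5, and the remaining libraries overlapped. The log2 changes by mouse were 0.19, -0.54 and -1.85. The limma estimate was -0.73 (95% interval -1.97 to 0.51, adjusted p = 0.490), and -0.17 without mouse 3. The sum of B lineage markers was also highest in that bulk library, and its part in the RB1 value was not tested.

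The spread of the 10 genes over the 6 libraries fell into differing parts. Population took 93.2% of the sum of squares of CDK6, 77.0% of CDKN2C and 68.9% of CCNE2. Mouse took more than population for CCND3 (69.2%), CDK4 (68.6%), RB1 (56.1%), CCND2 (54.4%) and CDKN1B (17.2%). These shares are descriptions of 6 libraries and are not adjusted for the number of groups. In mouse 1, 5 of the 10 genes were lower in LSC, in mouse 2, 7 and in mouse 3, 8. Of all 13755 genes tested 6365, 6829 and 7053 were lower in mice 1, 2 and 3. The median log2 change of the 10 was -0.61, against -0.004 over all genes tested.

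**Figure D3:**
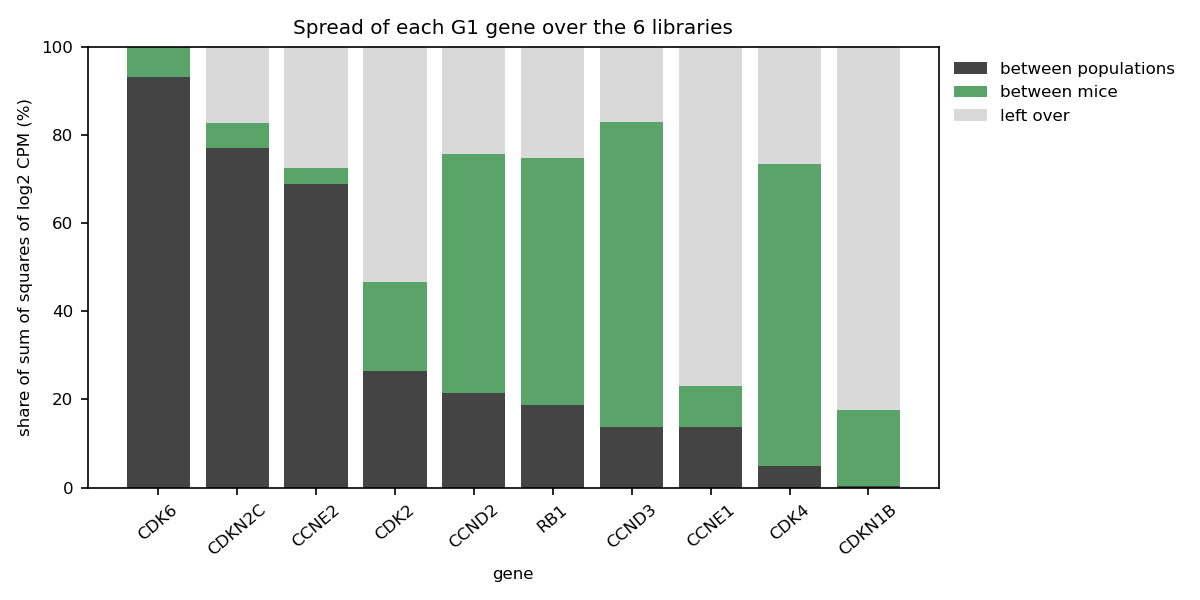
Share of the sum of squares of log2 CPM (y axis, percent) that lay between populations, between mice and left over, for each gene (x axis). CDK6 is almost all between populations (93.2%), CCND3 and CDK4 are mostly between mice (69.2% and 68.6%), and CCNE1 and CDKN1B are mostly left over (76.9% and 82.4%).

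The other cyclins, kinases and CDK inhibitors around G1 were examined next. Of 15 such genes 11 were tested, while CCNA1, CDKN2A, CDKN2B and CDKN1C had no row under these symbols. The 1 gene that rose was CDKN1A, which encodes p21, a CIP/KIP inhibitor and p53 target, and none fell. Of all genes tested 2.71% rose and 1.33% fell. CDKN1A went from 3.25, 7.54 and 3.45 CPM in the bulk libraries of mice 1, 2 and 3 to 38.6, 85.4 and 29.8 CPM in LSC. All LSC libraries lay above all bulk libraries, with log2 changes of 3.56, 3.50 and 3.10 and a limma estimate of 3.39 (SE 0.51, adjusted p = 0.00805), or 10.5-fold. Without mouse 1 the change was 3.30 and the limma adjusted p 0.130, in a fit without the block. With the block and all libraries the limma adjusted p was 0.000301. CCNA2, which encodes cyclin A2 of S and G2 phase, had a change of -1.81 that passed with the block (limma adjusted p = 0.125 without it and 0.0163 with it). CDKN2D, which encodes the INK4 inhibitor p19, had a change of 0.85 (limma adjusted p = 0.418), and was 2.44, 0.45 and -0.34 by mouse. The list had a median log2 change of -0.67.

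Among 18 other pocket proteins, E2F and DP factors and MuvB subunits, 1 fell and none rose, or 5 and none with the block. By the same rules 1.33% of all genes tested fell and 2.71% rose, or 7.71% and 8.25% with the block. TFDP1, which encodes DP1, the dimer partner of E2F factors, fell from 313 ± 51.8 to 112 ± 25.6 CPM (SD, n = 3). Within mice 1, 2 and 3 it moved by -1.71, -1.32 and -1.46 on the log2 scale (limma estimate -1.50, adjusted p = 0.0220). That call was lost without any 1 of the bulk libraries of mice 1 and 2 and the LSC libraries of mice 1 and 3 (adjusted p up to 0.0929), without mouse 1, 2 or 3 (0.246, 0.0841 and 0.0627), and with eBayes without trend (0.0830). The changes in these fits, which had no block, were -1.37 or lower. With the block and all libraries the limma adjusted p of TFDP1 was 0.00179. E2F8, a repressor of the E2F family, had a change of -1.97 (limma adjusted p = 0.0611, and 0.0141 with the block). The RB relatives RBL1 (p107) and RBL2 (p130) had changes of -0.39 and -0.13 with limma adjusted p of 0.469 and 0.847. The median of the list was -0.40. Of 10 parts of the ubiquitin ligases that act on cyclins and p27 none passed, with 0 higher and 2 lower with the block. Those were CDC20, a mitotic activator of the anaphase-promoting complex (log2 change -1.19, limma adjusted p = 0.128, and 0.0487 with the block), and CUL1, the cullin of SCF ligases (-0.95, 0.159 and 0.0370). SKP2, which marks p27 for degradation, had a change of -0.30 (limma adjusted p = 0.645).

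E2F target genes of S phase lie downstream of RB. Of 24 tested 4 fell and none rose, or 14 and none with the block, and 23 of the 24 had negative changes. Among all 13755 genes tested 1.33% fell and 2.71% rose, or 7.71% and 8.25% with the block, and 6909 had negative changes. The list's median was -1.28 on the log2 scale, with medians of -1.07, -1.03 and -1.58 within mice 1, 2 and 3. CLSPN, the checkpoint mediator claspin, was at 619, 431 and 451 CPM in bulk and 188, 167 and 135 CPM in LSC. DTL, a substrate receptor for degradation in S phase, was at 61.5, 50.5 and 64.2 CPM in bulk and 19.1, 18.6 and 21.2 CPM in LSC. Both genes had LSC libraries wholly below bulk, as had MCM4, a helicase subunit (79.0 ± 8.08 against 27.1 ± 5.29 CPM), and POLE2, a polymerase epsilon subunit (14.7 ± 2.54 against 3.97 ± 1.08 CPM). The limma adjusted p of these 4 genes was 0.0147 to 0.0344, or 0.00117 to 0.0117 with the block. The fits that leave out libraries or mice had no block. All 4 calls were lost without the bulk library of mouse 1 (adjusted p of 0.0682 to 0.163) and without the LSC library of mouse 3 (0.0545 to 0.0668), with log2 changes of -1.45 or lower. Without the bulk library of mouse 2 or the LSC library of mouse 1 the number of E2F targets that fell was 1 and 2, and without any 1 mouse, or with eBayes without trend, it was 0. For 20 genes of G2 and M phase the median was -1.92, with -1.49, -1.22 and -2.77 by mouse. Of these 9 fell and none rose, or 16 and none with the block. The number that fell was 3, 5 and 6 without the bulk library of mice 1, 2 and 3, 6 and 2 without the LSC library of mice 1 and 3, and 0, 2 and 2 without mice 1, 2 and 3. With eBayes without trend it was 2. They include HMMR (189 ± 45.0 to 40.4 ± 8.23 CPM), a spindle-associated protein, CENPF, MKI67, TOP2A, BUB1B and CENPE, with log2 changes of -2.22, -2.29, -2.13, -2.01, -1.88 and -2.0.

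**Figure D4:**
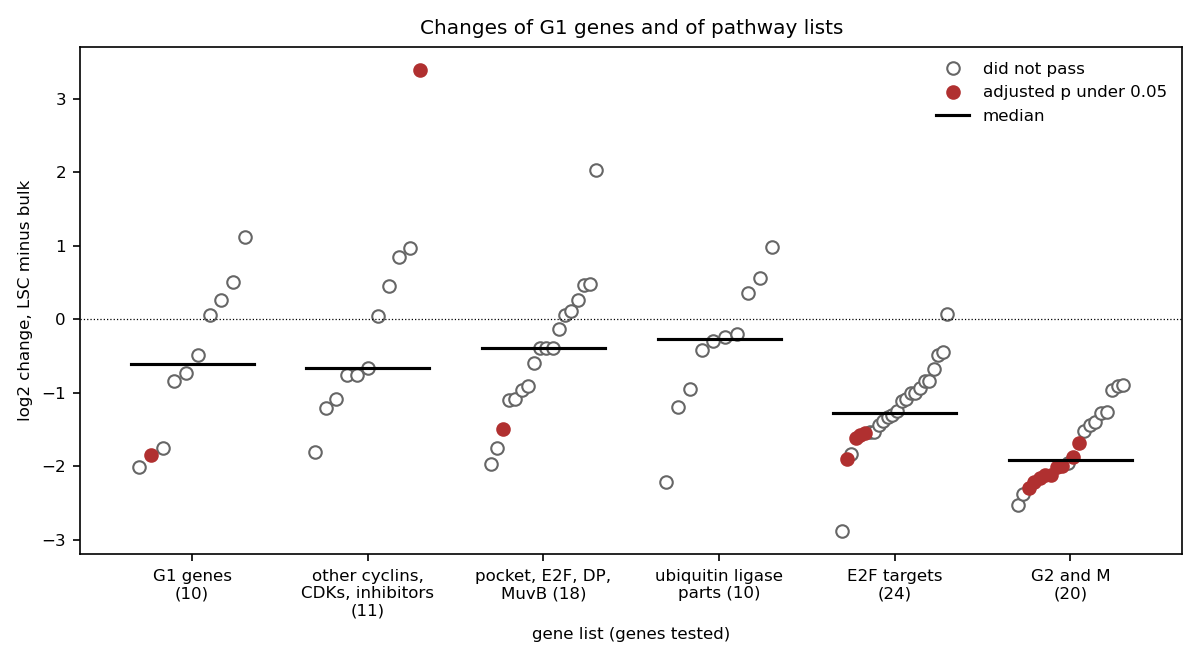
Log2 change, LSC minus bulk (y axis), of every tested gene in 6 lists (x axis, number tested in brackets). Filled points passed at an adjusted p under 0.05 without the mouse as a block, open points did not, and black bars are list medians. The 10 G1 genes lie on both sides of 0 while 23 of 24 E2F targets and all 20 genes of G2 and M phase lie below it, and the highest point is CDKN1A.

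The genes whose pattern over the 6 libraries was most like that of CDK6 were sought among 3511 genes with a mean of at least 5 log2 CPM. The closest were H2AFV, a histone H2A variant gene (Pearson r = 0.996), DTL (r = 0.988) and GLRX, glutaredoxin (r = 0.985). Of these GLRX fell by 1.60 on the log2 scale (limma adjusted p = 0.0165), while the value for H2AFV was -0.59 (adjusted p = 0.217). For CCNE2 the closest were IGSF6 (r = 0.994), PIK3CA, a catalytic subunit of phosphoinositide 3-kinase (r = 0.993), and RAD18, a ubiquitin ligase of damage tolerance (r = 0.989). With 6 libraries from 3 mice, which share depth and population, 38 genes had an r over 0.95 with CDK6 and 41 with CCNE2, so these likenesses are descriptions only.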

How the data were processed

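RNA of sorted bulk and LSC populations from 3 mice was amplified with a NuGEN kit before sequencing, per the labels, which gave 6 libraries. Tools named in the submitters' processing notes are RSEM, Bowtie2 and edgeR and the build is hg19, without versions or roles. The organism label names the mouse host, while gene symbols and build are human, and no human sequences or coordinates were used here. Sample columns, as deposited by the authors, hold log2 CPM with a small prior. The deposited table also holds the authors' log2 fold change, p-value and false discovery rate, and a likelihood ratio score that was not used here, per the file headers.

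All columns share a floor of 0.0197 CPM and rise from it in steps. Dividing by the step gave reads, whole within 0.1 for 100% of values. CPM here are 2 to the deposited value minus the floor. The recovered reads are estimates that passed through amplification without molecular identifiers, so they are not counts of molecules.

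The filter of 1 CPM in 3 libraries removed 137 genes, and the remaining 13755 were fitted on the deposited log2 values with limma 3.58.1 in R 4.3.3 (lmFit, then eBayes with a mean-variance trend). Tests were two-sided, with Benjamini-Hochberg adjustment over all genes and a threshold of 0.05. Because values are log2, no count model was used. The code was tested on simulated reads of libraries without a mouse effect. That checks the code and not whether the fit suits these paired libraries. Libraries with the same number share a mouse by design, so the number pairs them. Their deviations from the population means correlated at 0.33, 0.35 and 0.30 across genes. The blocked fit is given for some genes and lists, and not for every call that it changed. The mice are the replicates, and an exact permutation test of 3 libraries against 3 could not go below 0.1. No pair of libraries was alike within sampling noise (chi-square per degree of freedom 70.4 to 374).

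Members and gene lists were chosen with earlier results of these data known, so counts over them are not independent support. Named genes are the 10, up to 6 members past the threshold of each list (the leading 2 where fewer passed), and the 3 genes most like each of the 2 members with the largest statistic. CCND1, CDKN2D, RBL1, RBL2 and SKP2 were named after their values were seen. Ratios between genes were described without a test. The closing section gives the effect of other pseudocounts, filters, scalings, variance models, pairings and of leaving out libraries or mice.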

Additional observations from a re-analysis of the deposited data

How the results depend on the processing

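All 10 genes were refitted under 23 alternatives (22 for CCNE1 and CDKN2C, which a filter of 5 CPM left out), and log2 changes of CDK6 stayed between -2.03 and -1.69. The CDK6 call was lost in 3 of 23, eBayes without trend (adjusted p = 0.0539) and without mouse 1 or mouse 2. Counts moved by over 1.5 times as follows, and the cause was not tested. Of genes lower in LSC there were 183, and 302 and 280 with pseudocounts of 1 and 5 CPM and 282 with array weights. Without trend 197 were higher and 54 lower, 0 of the 10 genes was lower, and the number lower went from 4 to 0 for E2F targets, 9 to 2 for G2 and M genes and 1 to 0 for pocket proteins, E2F, DP and MuvB genes. With the replicate block (mouse number) 1135 were higher and 1060 lower, against 373 and 183, and 2 of the 10 were lower. With the mouse as a random effect the numbers were 1090, 983 and 3, and with voom on recovered reads and the block 1216, 1217 and 3. Leaving out 1 library gave 168 to 346 genes higher and 38 to 169 lower, and leaving out a mouse gave 37 (mouse 1), 85 (mouse 2) and 252 (mouse 3) higher and 0, 8 and 74 lower, with fewer samples in the fit. In these 0 to 1 of the 10 genes were higher and 0 to 1 lower. The 1 higher was CCND2 without mouse 3 or its LSC library. Reversed signs belonged to genes that did not pass. CDK4 was -0.17 without mouse 3 and CCNE1 was 0.084 without mouse 1. CDKN1B was -0.068 and -0.024 without bulk replicates 1 and 2, -0.31 without LSC replicate 2, and -0.083 and -0.39 without mice 1 and 2, with single-library values of -0.31 to 0.44. Scalings moved the median of all genes by -0.05 to 0.06 on the log2 scale. Differences in the 5 ratios between genes moved by less than their pooled SD with a pseudocount of 1 CPM and without any 1 library. Leaving out mice was added after seeing the data, and there CCNE2 to CCNE1 ran from -2.60 without mouse 1 to 1.11 without mouse 3, past its pooled SD, against -1.17. CDKN1B to CDK2 was -0.39 without mouse 2 and CDKN2C to CDK6 was -0.49 without mouse 1, both of opposite sign to the difference over all mice. Signs also turned without 1 library for CCNE2 to CCNE1 (0.16 without LSC replicate 3), CDKN1B to CDK2 (-0.19 without LSC replicate 2) and CDKN2C to CDK6 (-0.22, -0.17 and -0.12 without bulk replicate 1, LSC replicate 1 and LSC replicate 2). Reads of CCNE1 and CDKN2C, 8 to 105 per library, limit their precision.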
